A study of Mus musculus with 16 samples.

Results

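Lung Th2 cells that shared their T cell receptor (TCR) with at least 1 other sequenced cell were compared with lung Th2 cells whose TCR was seen once. The cells were CD4+IL-4eGFP+ cells sorted from the lungs of 2 IL-4eGFP reporter mice (strain 4get/C57BL/6), which were 13 weeks old and had received 500 larvae of the nematode Nippostrongylus brasiliensis (Nb) 10 days earlier. In 4get mice the reporter shows that the Il4 locus has been opened for expression, so the sorted population also holds cells that do not secrete IL-4. Both mice carried the same reporter and infection and had antibiotics in the drinking water on the first days, and no uninfected mouse is part of these data. Lungs were perfused before digestion, and the study states that some cells of the blood vessels remain. A lung cell was a member if it had over 500 unique molecular identifiers (UMIs, each counting 1 captured RNA molecule), over 500 genes, under 7% of UMIs from mitochondrial genes and at least 1 productive TCRα and TCRβ chain. A clone was the set of cells of a mouse, from lung and mesenteric lymph node (MLN), whose productive chains all matched in V and J segment and in the bases of the CDR3. Of 1498 such lung cells, 496 were in clones of 2 or more cells, called expanded here, and 1002 were in clones of 1 cell, called single. The whole set of lung and MLN cells with both chains numbered 4714. In lung 1, the library of mouse 1, 408 of 1082 cells were expanded, and in lung 2 of mouse 2, 88 of 416.

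A T cell builds its TCR in the thymus, by joining V, (D) and J segments with random trimming and addition of bases. It hands the TCR to its daughter cells, so a shared nucleotide CDR3 is taken here to mark descent from 1 cell. As 2 clones were found in both mice, matching chains do not always mark such descent. Naive T cells enter lymph nodes through the chemokine receptor CCR7 and leave by S1PR1. Activated effector T cells lower CCR7 and take up receptors for tissues. Th2 cells are driven by the factor GATA3, release the type 2 cytokines (IL-4, IL-5, IL-13), and reach the lung, through which the larvae of Nb migrate, within days.

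The CDR3 sequences of the clones with the most lung cells are shown first, because they carry the definition of a clone. Letters are as deposited for the contigs, 5′ to 3′, and capitals mark bases that could be placed neither on the end of the germline V segment nor on the J segment of GRCm38, which are D segment bases or bases added at the joints. Clone 1 had 11 cells in lung 1 and 0 in MLN. Its α chain used TRAV14N-3 (chr14:53370077-53370575, plus strand), which has near-identical copies, with TRAJ22 (chr14:54197248-54197307), and its β chain used TRBV5 (chr6:41062332-41062803, plus strand) with TRBJ1-6.
Clone 1 α: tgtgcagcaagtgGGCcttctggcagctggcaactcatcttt
Clone 1 β: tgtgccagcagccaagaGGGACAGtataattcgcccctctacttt
Clone 2, with 7 lung and 2 MLN cells of mouse 2, joined TRAV7-4 to TRAJ42 with 0 other bases, and TRBV31 (chr6:41557691-41558452, minus strand) to TRBJ2-3 with 15.
Clone 2 α: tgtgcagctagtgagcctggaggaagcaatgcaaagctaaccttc
Clone 2 β: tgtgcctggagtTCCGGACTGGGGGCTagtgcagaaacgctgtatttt
Clone 3 had 6 lung and 0 MLN cells of mouse 1 and used TRAV13D-2 with TRAJ39 and TRBV13-2 with TRBJ1-2.
Clone 3 α: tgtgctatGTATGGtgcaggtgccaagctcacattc
Clone 3 β: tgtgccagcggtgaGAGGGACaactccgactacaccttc
Clone 4, of mouse 1, had 5 lung and 10 MLN cells and carried a pair of productive α chains, of TRAV21-DV12 with TRAJ48 and of TRAV6-7-DV9 with TRAJ34, besides a β chain of TRBV13-1 with TRBJ2-5.
Clone 4 first α: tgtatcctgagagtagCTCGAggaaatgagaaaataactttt
Clone 4 second α: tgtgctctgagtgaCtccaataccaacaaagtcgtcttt
Clone 4 β: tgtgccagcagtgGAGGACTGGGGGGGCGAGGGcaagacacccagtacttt
The β chains of these clones held 7, 15, 7 and 20 bases outside the germline ends, and the α chains between 0 and 6. None of the 11 cells of clone 1 had a UMI of Ccr7, while 11 had Gata3, 9 Areg, 8 Il4, 4 Il13 and 3 Il5. Clone 2 had Gata3 in 7 of its 7 lung cells, Il4 in 5, Il13 in 1 and Il5 in 0. Clone 3 had Gata3 in 3 of its 6 lung cells, Il4 in 4, Il13 in 1 and Il5 in 0. Clone 4 had Gata3 in 5 of its 5 lung cells, Il4 in 2, Il13 in 1 and Il5 in 0. Ccr7 was found in 0 lung cells of clones 2, 3 and 4 too, and few expanded cells of either mouse had a UMI of it.

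Most lung clones were small. The expanded cells belonged to 211 clones of mouse 1 and 47 of mouse 2, of which 136 and 39 had just 2 cells over both organs. Clones of 3 or more cells with a lung cell numbered 75 and 8 and held 195 and 27 lung cells. The expanded share of lung cells was 37.7% in mouse 1 (95% Clopper-Pearson interval 34.8 to 40.7) and 21.2% in mouse 2 (17.3 to 25.4), and in MLN 29.7% and 13%. The mice differed in the number of cells sequenced, and with as many cells as in mouse 2, mouse 1 would be expected to have 20.5% of lung cells in expanded clones. Intervals cover counting error only. A TCR seen once marks a clone of which no second cell was sampled, so single cells can belong to clones that are large in the animal. The plot of lung cells by clone size gives all classes.

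**Figure D1:**
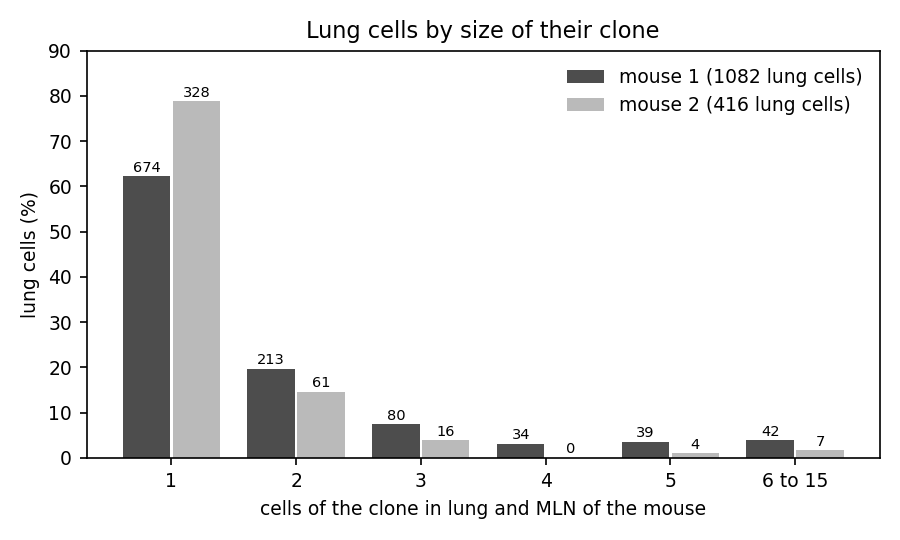
Lung cells of each mouse (percent, with the number of cells above each bar) by the number of cells of their clone in lung and MLN together. Clones of 1 cell hold 674 of 1082 lung cells in mouse 1 and 328 of 416 in mouse 2, and clones of 2 cells are the next class in both.

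An expanded clone with lung cells also had an MLN cell in 105 of 211 cases in mouse 1 and in 21 of 47 in mouse 2. No lung cell was in any of the 2 clones found in both mice. CDR3 features had much the same medians in both classes. The median CDR3 of the β chain was 42 bases in expanded and single clones of both mice, and that of the α chain was 39 bases in the expanded clones of mouse 1 and 42 in the other groups. The median number of bases outside the germline ends was 3 in α and 9 in β chains in every group. TRBV13-2 made up 13.1% of the β chains of expanded and 10.9% of those of single clones in mouse 1, and 14.3% and 13.9% in mouse 2. The invariant TCRα chain of NKT cells was found in 0 expanded cells and in 3 and 8 single cells.

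Expanded and single cells came from the same libraries and had similar depth. The median number of UMIs per cell was 6880 in expanded and 6945.5 in single cells of mouse 1, and 5582.5 and 5910 in mouse 2. Of expanded cells, 29.7% and 21.6% had a UMI of Mki67 or Top2a, and of single cells 26.6% and 22.6%. The 4 markers of CD4 T cells summed to 3011 to 3314 CPM (UMIs of a gene divided by the UMIs of all genes in a sum of cells, scaled to 1000000) in the 4 lung sums, against 8.67 to 12.2 CPM for the 2 markers of CD8 T cells, with Cd8a at 0 in all sums, and 0 for the 3 haemoglobin genes. The 5 B cell markers summed to 91.9 and 133.5 CPM in expanded and to 94.8 and 124.7 CPM in single cells, with Ms4a1 at 0. The 6 myeloid markers summed to 67.1 and 29.5 CPM in expanded and to 48.5 and 48.3 CPM in single cells, with Lyz2, C1qa and C1qb at 0. The 4 epithelial markers summed to 3.45 to 4.52 CPM, with Sftpc at 0, and the 3 eosinophil markers to 3.76 and 0 CPM in expanded and to 0 and 1.81 CPM in single cells, with Prg2 and Epx at 0. The 8 innate-like markers summed to 168 and 153 CPM in expanded and to 92.9 and 213 CPM in single cells, with Zbtb16 at 0 in both expanded sums. The part of these marker lists in the results below was not tested. Pairs of the 4 libraries shared 13 cell barcodes in all, of which 0 had the same clone in both. The markers of basophils and mast cells (Mcpt8, Cpa3, Ms4a2 and Fcer1a) stood apart. They summed to 14.7 and 15.6 CPM in expanded and to 2.45 and 2.71 CPM in single cells, and 1 expanded barcode of each mouse carried all 4. These 2 barcodes, with 13334 and 18364 UMIs, were in clones of 2 cells. Basophils of 4get mice also carry the reporter but lack a TCR and surface CD4. No other lung cell had more than 1 of the markers. No doublet caller was used, and calls were repeated without these 2 barcodes.

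Across 9298 genes, summed over the cells of each class in each mouse and compared within mice by edgeR's quasi-likelihood test with Benjamini-Hochberg adjustment, 70 genes were higher and 56 lower in expanded cells, 1.36% of those tested in either direction (0.753% higher, 0.602% lower). Ccr7, the chemokine receptor of lymph node entry, the factors of naive and memory-like T cells (Tcf7, Lef1, Klf2 and Satb1) and the SLAM pathway (Slamf6 and Sh2d1a) were lower, while S100a4, S100a6, Lgals1, Plac8 and the tissue chemokine receptor Cxcr6 were higher. Without the 2 barcodes 16 genes were higher (0.172%) and 26 lower (0.28%), 0.453% of 9278, and all 42 were among the 126. Of the 56 lower genes, 56 had the same sign in both mice, and in 51 the expanded sums both lay under the single sums, as they did in 15.3% of all genes. Of the 70 higher genes, 68 had the same sign in both mice and in 47 the groups did not overlap, against 12.5% of all genes. The same sign in both mice was seen in 52.0% of all genes, and the median difference of all genes was 0.00 on the log2 scale. The 126 genes were called on these same sums. Agreement between the mice among them follows in part from that selection and is no separate support.

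These tests rest on 4 sums of 2 mice. The fit left 1 residual degree of freedom per gene and took the spread from all genes together, so that calls shifted with the cells included. The prior degrees of freedom of that spread were infinite with all cells and 17.0 without the 2 barcodes, so a gene can lose its call with an unchanged difference. Without mouse as a block 7 genes passed (among them Ccr7, Ccl3, Ccl4 and Tyrobp), 0.0753% of those tested, and with DESeq2 11 passed, 0.118%. All 126 genes kept their sign in these 2 fits. Differences below are log2 differences ± SE of the fit over both mice (expanded minus single), and passing means an adjusted p under 0.05 in edgeR.

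**Figure D2:**
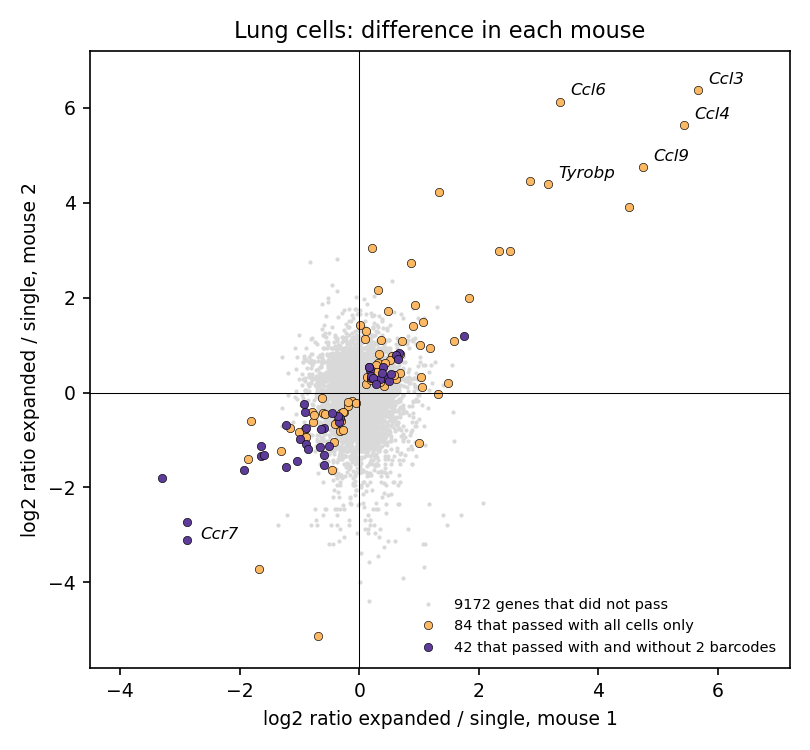
Log2 ratio of expanded to single lung cells in mouse 1 (x axis) and mouse 2 (y axis), computed for each of 9298 genes from CPM + 1. Colored points passed the test over both mice, 42 of them with and without the 2 barcodes with basophil markers; Ccr7 lies at the lower left, and Ccl3, Ccl4, Ccl6, Ccl9 and Tyrobp, most of whose UMIs in expanded cells come from those barcodes, at the upper right.

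Ccr7, which guides T cells into the T cell zone of lymph nodes, was the clearest difference. Its level was 14.4 CPM in expanded and 112.3 CPM in single cells of mouse 1, and 15.6 and 109.4 CPM in mouse 2. Both single sums lay far above both expanded sums. The fitted difference was −2.93 ± 0.18 (edgeR, adjusted p = 2.7e-53), and it passed under each of 24 alternatives. In mouse 1, 5.15% of expanded cells (interval 3.21 to 7.76) and 16.6% of single cells (13.9 to 19.6) had a UMI of Ccr7, and in mouse 2 5.68% (1.87 to 12.8) and 18.3% (14.3 to 22.9). Thinned to 2000 UMIs per cell, 3.01% of expanded and 9.72% of single cells of mouse 1 had a UMI, and 1.23% and 10.1% of those of mouse 2, leaving out 9, 5, 7 and 1 shallower cells. All cells were sorted as CD4+, so no cell type that lacks the gene was at hand to measure free RNA. Among cells with a UMI of Ccr7 the mean was 2.19 UMIs in expanded and 5.31 in single cells of mouse 1, and 1.8 and 4.03 in mouse 2. In sums of cells, fewer cells of a kind and less RNA per cell cannot be told apart. The 6 markers of migrating T cells, which include Ccr7, S1pr1, Klf2, Tcf7 and Cd27, summed to 252 CPM in expanded and 549 in single cells of mouse 1, and to 317 and 626 CPM in mouse 2, and their part in the differences of the single genes was not tested.

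S1pr1, the receptor for egress into blood and lymph, was at 36.7 and 69.5 CPM in mouse 1 and at 83.2 and 111.2 CPM in mouse 2. The expanded cells of mouse 2 exceeded the single cells of mouse 1, so that only the comparison within mice gave a difference, of −0.75 ± 0.15. Klf2, the factor that drives S1pr1, fell from 74.96 to 49.5 CPM in mouse 1 and from 117.9 to 46.8 in mouse 2 (−0.79 ± 0.14). Ccr4, a receptor of skin and lung homing, was also lower (−0.44 ± 0.12), and at −0.41 without the 2 barcodes, where it missed the threshold (adjusted p = 0.32).

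Among transcription factors, Tcf7, which encodes TCF1 of naive and self-renewing T cells, was at 85.6 CPM in expanded and 159.5 in single cells of mouse 1, and at 104.0 and 174.9 CPM in mouse 2. The expanded sums were lower in both mice without overlap (−0.86 ± 0.12, edgeR, adjusted p = 1.1e-10). Its partner Lef1 went the same way, from 58.7 to 32.0 CPM and from 84.0 to 36.4 CPM (−0.96 ± 0.17), as did the chromatin organizer Satb1 (−0.65 ± 0.11). These 3 passed without the 2 barcodes too. Irf4, which acts downstream of the TCR, was lower with all cells (−0.67 ± 0.15) and stood at −0.65 without them (adjusted p = 0.13). Igfbp4, a binding protein of insulin-like growth factors whose mRNA is found in naive T cells, was singled out after its values were seen because it had the largest drop among the 56 genes. It had 0 and 1 UMIs in expanded cells against 34 and 50 in single cells, a ratio of 42.1 with a counting interval of 7.36 to 1683, and it stayed called without the 2 barcodes. The interval takes UMIs as independent, though several can come from 1 cell.

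Genes of the SLAM pathway, through which T cells sustain contact with B cells, were lower as well. Sh2d1a, encoding the adaptor SAP, was at 44.8 CPM in expanded and 89.9 in single cells of mouse 1, and at 57.2 and 113.0 CPM in mouse 2 (−0.998 ± 0.145). Slamf6, a receptor that signals through SAP, was at 39.8 and 74.8 CPM and at 41.6 and 89.0 CPM (−0.96 ± 0.15). For both genes each single sum lay above each expanded sum. The costimulatory receptor Cd27 was lower at −0.58 ± 0.14, and at the same −0.58 without the 2 barcodes (adjusted p = 0.053). Cxcr5, the receptor for the B cell follicle, did not pass and was close to absent, at 4.4 and 7.2 CPM in mouse 1 and 0 and 2.7 CPM in mouse 2, and Il21 was too low to be tested.

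Other lower genes were Myo6, an unconventional myosin (−1.09 ± 0.15), Rflnb, a partner of filamin (−1.17 ± 0.21), Tagap, a GTPase-activating protein of T cells (−0.95 ± 0.18), Trib1, a pseudokinase (−1.09 ± 0.25), Fam46c, a poly(A) polymerase (−0.94 ± 0.21), and Trat1, an adaptor of the TCR complex (−0.91 ± 0.21). Myo6, Rflnb and Tagap also passed without the 2 barcodes, and Trib1, Fam46c and Trat1 had adjusted p between 0.053 and 0.068 with almost the same differences. Ifi27l2a, an interferon-induced gene with a much higher level, was at 926 and 1158 CPM in mouse 1 and at 1087 and 1583 CPM in mouse 2 (−0.42 ± 0.05).

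**Figure D3:**
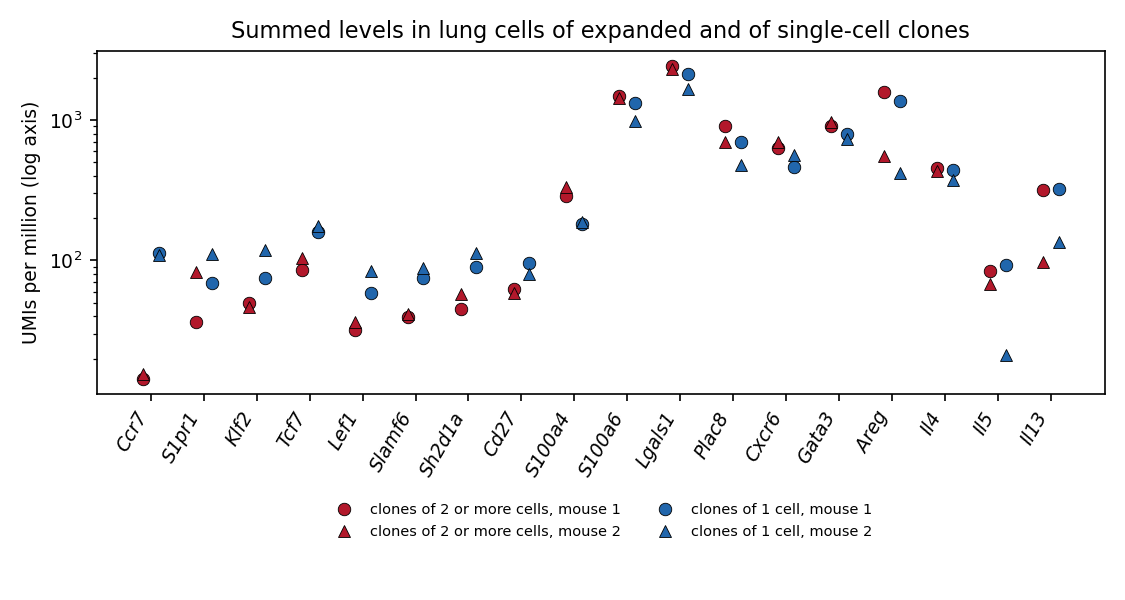
CPM (log axis) of 18 genes in the sums of expanded (red) and single (blue) lung cells of mouse 1 (circles) and mouse 2 (triangles), 1 point per sum. For Ccr7, Tcf7, Lef1, Slamf6 and Sh2d1a both red points lie under both blue points and for S100a4, S100a6, Lgals1 and Cxcr6 above them, while Il4, Il5 and Il13 passed in neither direction.

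On the other side, S100a4, a calcium-binding protein of motile effector and memory T cells, was at 289 CPM in expanded and 182 in single cells of mouse 1, and at 335 and 188 CPM in mouse 2. Both expanded sums were higher (0.72 ± 0.09, edgeR, adjusted p = 5.5e-13). In mouse 1, 55.4% of expanded and 39.0% of single cells had a UMI of it, and in mouse 2 48.9% and 38.4% (31.8% and 21.8%, and 34.6% and 21.1%, in thinned cells). Its relative S100a6 was at 1491 and 1328 CPM and at 1437 and 986 CPM (0.33 ± 0.05). Lgals1, the galectin of activated T cells, was at 2406 and 2136 CPM and at 2309 and 1656 CPM (0.31 ± 0.04). Plac8, a gene of effector T cells, was at 912 and 697 CPM in mouse 1 and at 697 and 480 CPM in mouse 2 (0.44 ± 0.06), so that the expanded cells of mouse 2 were level with the single cells of mouse 1. Cxcr6, which holds T cells at epithelia that display CXCL16, was at 628 and 460 CPM and at 693 and 563 CPM (0.39 ± 0.07). These 5 genes passed with and without the 2 barcodes, and none of them passed without mouse as a block, where the adjusted p was 0.12 for S100a4 and close to 1 for the others.

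Vim and S100a11, of the cytoskeleton and of the same calcium-binding family, differed by 0.21 ± 0.05 and 0.23 ± 0.06 and by 0.22 and 0.24 without the 2 barcodes, where neither was called. Gata3, the defining factor of Th2 cells, was at 903 CPM in expanded and 792 in single cells of mouse 1, and at 966 and 728 CPM in mouse 2. The groups did not overlap and the difference of 0.28 ± 0.06 passed with all cells, with an adjusted p of 0.053 without the 2 barcodes, where it was 0.27. Rora, a factor shared by Th2 cells and group 2 innate lymphoid cells, was higher by 0.34 ± 0.10 with all cells and stood at 0.35 without the 2 barcodes (adjusted p = 0.13). Areg, which encodes the growth factor amphiregulin, was at 1580 and 1371 CPM in mouse 1 but at 553 and 420 CPM in mouse 2 (0.27 ± 0.06). The mice differed far more than the clone classes, and the difference was 0.22 without the 2 barcodes (adjusted p = 0.12) and 0.25 (adjusted p = 0.13) without the cell of each sum with the most UMIs.

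Early genes of TCR signaling and stress were in part higher. Rgs1, which blunts chemokine receptor signals, was at 1257 and 1079 CPM and at 1586 and 1283 CPM (0.26 ± 0.05). Dusp1, a phosphatase of MAP kinases, was at 990 and 778 CPM and at 1071 and 878 CPM (0.32 ± 0.06). Both passed without the 2 barcodes, whereas Egr1 (0.39 ± 0.11, and 0.36 without them) and Jun (0.49 ± 0.11, and 0.41) did not. Jun rested on mouse 2, with 131 and 131 CPM in mouse 1 and 251 and 92.6 CPM in mouse 2. The inducible chaperone gene Hspa1a was at 177.5 and 115.7 CPM and at 142 and 81.3 CPM (0.67 ± 0.11) and passed both ways, and its copy Hspa1b, which is near-identical so that reads can be shared between them, was higher by 0.61 ± 0.15, and stood at 0.63 without the 2 barcodes (adjusted p = 0.053). Of receptors, Ccr9, which guides T cells to the gut, was at 86.9 and 57.8 CPM and at 53.7 and 41.6 CPM (0.54 ± 0.15), and Ccr2 was higher by 0.29 ± 0.08. Without the 2 barcodes they stood at 0.53 and 0.31, and neither was called.

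The type 2 cytokine genes did not pass. Il4 was at 455 CPM in expanded and 443 in single cells of mouse 1, and at 435 and 375 CPM in mouse 2 (0.10 ± 0.07, edgeR, adjusted p = 0.94). Il13 was at 319 and 324 CPM and at 97.1 and 136 CPM (−0.12 ± 0.09, adjusted p = 0.98 in edgeR). Il5 was at 84.7 and 92.3 CPM in mouse 1 and at 67.6 and 21.2 CPM in mouse 2, where 29 of 39 UMIs of the expanded cells came from 1 cell. A UMI of Il13 was found in 31.6% of expanded (27.1 to 36.4) and 28.0% of single cells (24.7 to 31.6) of mouse 1, and in 21.6% (13.5 to 31.6) and 19.5% (15.4 to 24.2) in mouse 2. The intervals overlapped widely in both mice. They take cells as independent, although expanded cells come in clones, and their overlap is no test between the classes. Il13 had no settled direction under other settings. It was higher in expanded cells with the TCRβ chain alone as the clone (0.39, edgeR, adjusted p = 0.028). With 1 cell drawn per clone it was lower (−0.70, edgeR, adjusted p = 0.026). Without the single cells of mouse 1 it stood at 0.81, but that fit has no mouse block. It sets the expanded cells of both mice against the single cells of mouse 2, the mouse with the lower Il13 levels in both classes. The alarmin receptor Il1rl1 (0.09 ± 0.08), the IL-2 receptor chain Il2ra (−0.04 ± 0.14), the inhibitory receptor Pdcd1 (0.17 ± 0.10), the neuropeptide gene Calca (−0.08 ± 0.09), Ccr8 (0.17 ± 0.10), Adam8 (0.40 ± 0.13), Rgs16 (−0.56 ± 0.17), Nr4a1 (0.13 ± 0.06), Il10 (−0.30 ± 0.21), Tbx21 (−0.10 ± 0.32) and Cxcr3 (0.30 ± 0.30) did not pass either. Pdcd1 differed in opposite directions, with 336 and 250 CPM in mouse 1 and 64.1 and 126 CPM in mouse 2. The cycling genes Mki67 (0.24 ± 0.12) and Top2a (0.20 ± 0.12) did not pass. Zbtb16, Klrb1c and Foxp3 were too low to be tested. Of 32 genes of a panel of Th2, homing and cycling genes, 28 were tested, of which 5 were higher and 6 lower. Of all genes tested, 0.753% were higher and 0.602% lower. The panel was chosen with earlier results of these data known, so its count is no separate support.

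A group of higher genes traced to single barcodes. In 12 of the 70 genes at least 50% of the UMIs of the expanded sum came from 1 cell in both mice (Ccl3, Ccl4, Ccl6, Ccl9, Ifitm1, Tyrobp, Osm, Fcer1g, Ier3, Emilin2, Plek and Cyp4f18). Ccl3, a chemokine of granulocytes and activated T cells, had 159 and 47 UMIs in expanded and 0 in single cells, which is at least 137-fold higher against a floor of 3 UMIs over both mice, and 155 and 47 of these UMIs were in the 2 barcodes with basophil markers. Tyrobp and Fcer1g, signaling chains of innate receptors, had 36 and 17 and 20 and 12 UMIs, all in the same barcodes. These barcodes held 2 and 10 UMIs of Cd3e and 9 and 29 of Gata3. Osm was at 34.8 and 9.1 CPM and at 69.3 and 16.7 CPM (1.98 ± 0.23), with 84 of 111 and 27 of 40 UMIs in the 2 barcodes and a difference of 0.12 without them. Ier3 changed sign without them, from 1.08 to −0.09.

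The calls of further higher genes changed with the cells included. Ifng, the Th1 cytokine, was at 20.7 and 5.5 CPM in mouse 1 and at 36.4 and 15.4 CPM in mouse 2 (1.63 ± 0.28). It passed without the 2 barcodes, but had an adjusted p of 0.48 without the cell of each sum with the most UMIs. Nkg7, of cytotoxic granules, was higher in mouse 1 (119 and 59.5 CPM) and lower in mouse 2 (22.5 and 47.9 CPM). It passed without the top cells (0.61, edgeR, adjusted p = 0.0048) and not without the 2 barcodes (0.68, adjusted p = 0.35). Il6, an inflammatory cytokine gene (0.89 ± 0.21), and Cenpf, of the kinetochore (1.05 ± 0.22), likewise passed without the top cells (0.87 and 0.91) and not without the 2 barcodes (0.65 and 0.78). The histone genes Hist1h1b (0.79 ± 0.16) and Hist1h2ag (1.68 ± 0.26), which have near-identical copies among which reads may be split, passed neither without the 2 barcodes (0.74 and 1.35) nor without the top cells (0.49 and 0.86). Alox5ap, of leukotriene synthesis (0.92 ± 0.22), was at 0.35 without the 2 barcodes, Lilrb4a, an inhibitory receptor (0.82 ± 0.19), at 0.59 and Myadm, of membrane organization (0.75 ± 0.20), at 0.77, and none of these 3 was called there.

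Counts over gene lists take up genes already called above, and the lists were chosen with earlier results of these data known. They are no separate support. Of all genes tested, 0.753% were higher and 0.602% lower, and without the 2 barcodes 0.172% and 0.28%. Of 23 tested genes of homing and egress, 3 were higher (Ccr9, Cxcr6 and Ccr2) and 5 lower (among them Ccr7, S1pr1, Klf2 and Ccr4), with a median of −0.07 against 0.00 over all genes, and without the 2 barcodes 1 was higher and 4 lower. Of 24 lineage and differentiation factors, 2 were higher and 4 lower, and without the 2 barcodes 0 and 3. Of 9 follicular helper genes 0 were higher and 2 lower, with the lowest median of the 15 lists (−0.42), and the counts were the same without the 2 barcodes. Of these 9 genes, 5 had the same sign in both mice. The 7 follicular helper markers, which include Sh2d1a, summed to 1076 CPM in expanded and 1065 in single cells of mouse 1. In mouse 2 they summed to 860 and 898 CPM. Of 21 genes known from lung effector Th2 cells, which the study chose in part on these same libraries, 7 were higher and 0 lower (median 0.18), and 4 without the 2 barcodes. Of 25 genes of the early response to TCR signals, 4 were higher and 0 lower, and 2 and 0 without the 2 barcodes. Among 11 innate-like and cytotoxic genes 5 were higher, of which Ccl3, Ccl4 and Fcer1g sat in the 2 barcodes, and without them 1 of 8 was. Of 22 mitosis genes 1 was higher, Cenpf, with a median of 0.33, and without the 2 barcodes 0 were, with a median of 0.22. Of 21 genes of DNA replication, 13 of survival and 15 of glycolysis none passed in edgeR. Of 15 cytokine genes 3 were higher and 0 lower (Il6, Areg and Ifng), of 19 costimulatory and inhibitory receptors 0 and 2 (Slamf6 and Cd27), of 17 alarmin and cytokine receptors 0 and 1 (Il6ra), of 17 interferon response genes 0 and 1 (Ifi27l2a) and of 11 heat shock genes 2 and 0. Without the 2 barcodes the numbers higher and lower were 1 and 0 of the cytokines, 0 and 1 of the costimulatory and inhibitory receptors, 0 and 0 of the alarmin and cytokine receptors, where Il6ra went from −0.71 to −0.69, 0 and 1 of the interferon response genes and 1 and 0 of the heat shock genes.

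**Figure D4:**
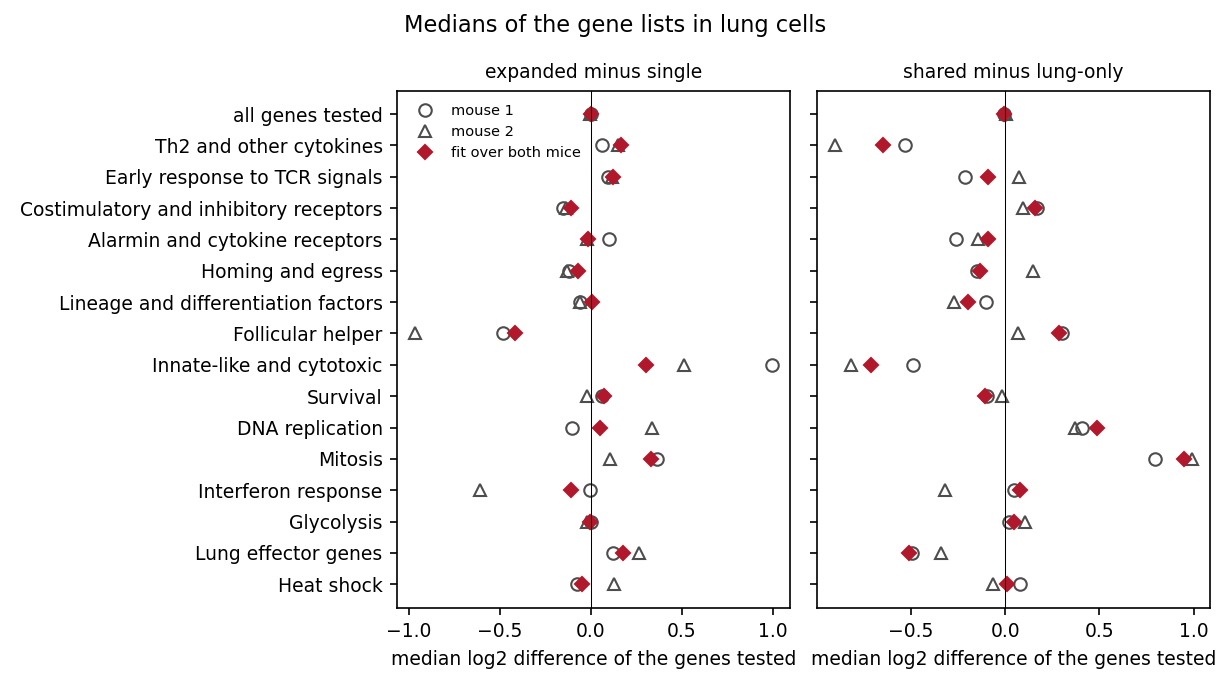
Median log2 difference of the tested genes of each list in mouse 1 (circles), in mouse 2 (triangles) and in the fit over both mice (diamonds), for expanded minus single lung cells (left) and for expanded clones with an MLN cell minus those in lung only (right). All genes have a median of 0.00 on both sides, the follicular helper list has the lowest median on the left (−0.42) and the mitosis list the highest on the right (0.95).

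The lower Ccr7 level was present from clones of 2 cells on. In mouse 1 it was at 112.3 CPM in clones of 1 cell, 10.9 CPM in clones of 2 and 18.7 CPM in clones of 3 or more, and in mouse 2 at 109.4, 17.9 and 10.8 CPM. S100a4 was at 182, 288 and 291 CPM in mouse 1 and at 188, 360 and 281 CPM in mouse 2. Tcf7 was at 159.5, 82.0 and 89.99 CPM and at 174.9, 99.5 and 113.5 CPM. In these genes the step lay between 1 and 2 cells, with no further order shared by both mice. The genes were chosen for passing between expanded and single cells on these same cells. Clones of 2 held 213 of the 408 and 61 of the 88 expanded lung cells. A step at that size thus follows in part from the choice and is no separate support. Ccr7 had few UMIs in expanded cells, which limits what can be said of a further order. For clones of 3 or more cells against single cells, where mouse 2 gave 27 expanded cells, 1 gene of 8708 passed in edgeR (0.0115%), Ccr7.

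Members of 1 clone often differed in cytokine UMIs. Of 130 clones of mouse 1 with at least 2 lung cells, Il13 was detected in no lung cell of 56, in some of 54 and in all of 20. In mouse 2 the numbers were 17, 11 and 2 of 30. Il5 was found in no cell of 98 and in all of 4 clones of mouse 1, and in no cell of 25 and in all of 1 in mouse 2. Il4 was found in no cell of 15 and in all of 53 clones of mouse 1, and of 1 and 13 in mouse 2. At these depths a cell without a UMI can still express the gene. Ccr7 was found in no lung cell of 120 of 130 and of 27 of 30 clones, and in all cells of 0 clones of either mouse. As few expanded cells had a UMI of Ccr7, such counts could arise without any likeness of clone members. Whether members of a clone agreed more than cells of different clones was not tested for any of these genes.

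A test of whether the lung difference departs from that of MLN cells of the same mice (828 expanded and 2388 single MLN cells) found 15 genes higher and 25 lower of 10280 (0.146% and 0.243%), 0.389% in either direction. Without mouse and library as blocks 0 passed in edgeR (233 at an unadjusted p under 0.05), and with DESeq2 11 passed (0.107%). Ccr7 had lower values in expanded MLN cells too, at 20.9 and 47.4 CPM in mouse 1 and at 22.4 and 44.2 CPM in mouse 2, and the lung difference departed from that in MLN by −1.78 ± 0.28 (edgeR, adjusted p = 0.0011). Tcf7 was at 578 and 592 CPM and at 622 and 585 CPM in MLN, where its level was several times that in lung, and the lung difference departed by −0.86 ± 0.12. Slamf6 (−0.96 ± 0.16), Sh2d1a (−1.15 ± 0.14) and Rflnb (−1.05 ± 0.19) behaved alike, with MLN levels above those in lung. S100a4 was low in MLN, at 19.97 CPM in expanded and 4.76 in single cells of mouse 1 and at 44.8 and 4.08 CPM in mouse 2. Its ratio of expanded to single cells was larger there than in lung, and the lung difference departed by −1.70 ± 0.27. Ccl5, a chemokine of cytotoxic and innate-like T cells, and Ctsw, a protease of cytotoxic cells, were scarce in expanded MLN cells, with Ccl5 at 0.48 and 25.2 CPM and at 0 and 34.2 CPM and Ctsw at 2.2 and 21.4 CPM and at 7.5 and 35.5 CPM. In lung, Ctsw was at 78.1 and 59.7 CPM and at 116 and 91.7 CPM, and the differences departed by 5.39 ± 0.69 for Ccl5 and 3.40 ± 0.34 for Ctsw. The invariant TCRα chain was carried by 45 and 20 of the single MLN cells and by 0 expanded ones. Both genes still passed without cells with that chain. That fit keeps innate-like cells that lack the chain, and their part was not tested. The value for Ccl5 rests on levels close to 0 in expanded MLN cells, at 0.48 and 0 CPM. Ccl5 was not among the genes called between expanded and single lung cells, so this value does not show a higher level in expanded lung cells.

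Expanded lung cells were then divided by whether their clone also had a cell in the MLN. The shared clones held 142 and 32 lung cells and the lung-only clones 266 and 56. By definition a lung-only clone had at least 2 lung cells, while a shared clone could have 1. This was so in 81 of 105 shared clones of mouse 1 and in 17 of 21 of mouse 2. A cell in the MLN and the number of lung cells in a clone thus go together here, and their parts were not tested. The test found 23 genes higher and 42 lower in shared clones of 6941 (0.331% and 0.605%), 0.936% in either direction, and 8 higher (0.114%) and 20 lower (0.285%) without the 2 barcodes, 0.399% of 7018. Of the 2 barcodes, that of mouse 1 lay in a lung-only clone and that of mouse 2 in a shared clone. This comparison was the least stable. Without mouse as a block 0 genes passed in edgeR (259 at an unadjusted p under 0.05), with DESeq2 1 did (Fgl2, 0.0144%), and depth was not equal, with medians of 7668.5 UMIs in shared and 6507.5 in lung-only cells of mouse 1 and of 5712 and 4868 in mouse 2. With cells thinned to 2000 UMIs 0 genes passed, of 169 at an unadjusted p under 0.05.

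Genes of lung effector Th2 cells were in part lower in shared clones. Of 21 tested, 8 were lower (Il1rl1, Il2ra, S100a4, Cxcl2, Areg, Calca, Ccr8 and Il13) and 0 higher, with a median of −0.51. Of all genes tested, 0.605% were lower and 0.331% higher. Without the 2 barcodes 4 of the list were lower, against 0.285% of all genes. The study chose these genes in part on these same libraries, so the count is no separate support. Il13 was at 157 CPM in shared and 425 in lung-only clones of mouse 1, and at 70.5 and 118 CPM in mouse 2. It was lower in both mice, though the lung-only sum of mouse 2 lay under the shared sum of mouse 1 (−1.32 ± 0.16, edgeR, adjusted p = 3.6e-06). Areg was at 1266 and 1786 CPM and at 415 and 662 CPM (−0.55 ± 0.11). Il1rl1, the receptor of IL-33, was at 383 and 551 CPM and at 208 and 292 CPM (−0.51 ± 0.13). S100a4 was at 203 and 346 CPM and at 223 and 423 CPM, the groups without overlap as in 16.0% of all genes on this side (−0.82 ± 0.13). Ramp1, a subunit of the receptor for the neuropeptide CGRP, was at 21.3 and 121 CPM and at 3.9 and 46.7 CPM (−2.58 ± 0.30), with a UMI in 4.23% of shared and 20.6% of lung-only cells of mouse 1 thinned to 2000 UMIs (8.45% and 33.1% unthinned). Igfbp7, of the same family of binding proteins as Igfbp4, was at 54.5 and 166 CPM and at 15.7 and 118 CPM (−1.78 ± 0.22). Fgl2, a secreted fibrinogen-like protein, was at 240 and 497 CPM and at 78.3 and 383 CPM (−1.32 ± 0.16), and Ctla4, an inhibitory receptor, at 284 and 493 CPM and at 286 and 445 CPM (−0.74 ± 0.13). Il13, S100a4, Areg, Ramp1, Igfbp7, Fgl2 and Ctla4 passed without the 2 barcodes, and Il1rl1 did not (adjusted p = 0.12). Pdcd1 was lower in mouse 1 alone, at 228 and 407 CPM against 66.6 and 62.2 CPM in mouse 2. Il5 went in opposite directions in the mice (19.0 and 128 CPM, 114 and 31.1 CPM) and did not pass. All 29 UMIs of the shared clones of mouse 2 were in 1 cell, and without such cells Il5 was lower (−3.18, edgeR, adjusted p = 0.0025).

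**Figure D5:**
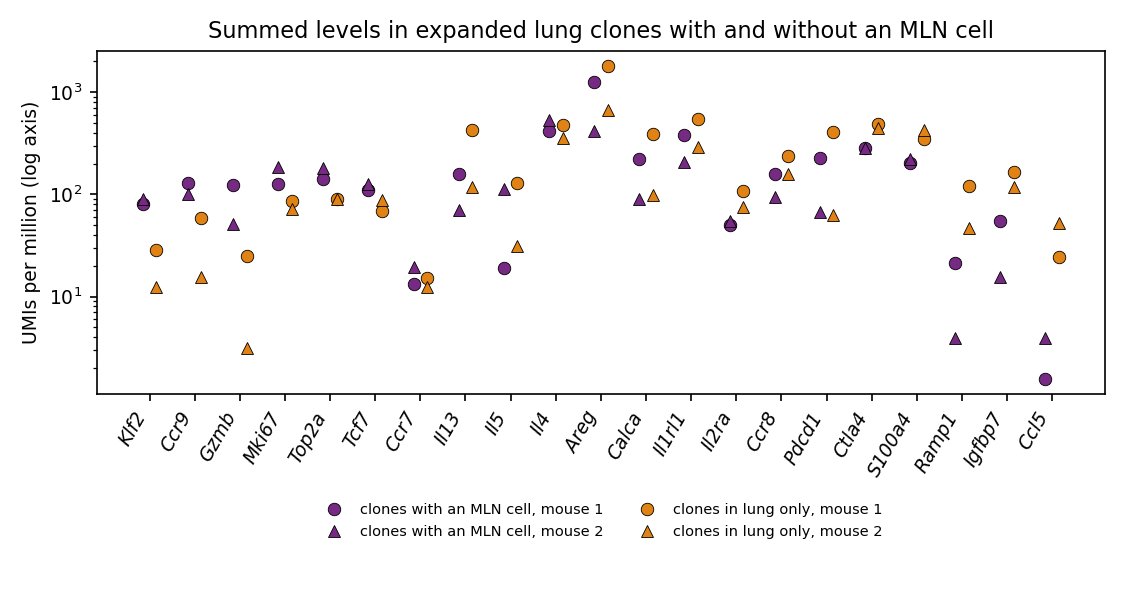
CPM (log axis) of 21 genes in lung cells of expanded clones with an MLN cell (purple) and in lung only (orange), for mouse 1 (circles) and mouse 2 (triangles). Klf2, Ccr9, Mki67 and Top2a lie higher in shared clones of both mice and Il13, Areg, Ramp1, Igfbp7 and S100a4 lower, while Ccr7 shows no shared direction.

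Klf2 and Ccr9 were higher in shared clones. Klf2 was at 81.3 CPM in shared and 28.6 in lung-only clones of mouse 1, and at 90.1 and 12.4 CPM in mouse 2 (1.76 ± 0.29), but 42 of the 103 UMIs of the shared clones of mouse 1 came from 1 cell, and the adjusted p was 0.20 without such cells. Ccr9 was at 130 and 58.3 CPM and at 102 and 15.6 CPM (1.40 ± 0.24), with a UMI in 13.4% of shared and 7.39% of lung-only cells of mouse 1 thinned to 2000 UMIs (23.9% and 10.5% unthinned). For both genes the shared sums lay above the lung-only sums, as in 15.3% of all genes. Ccr9 passed without the 2 barcodes and had an adjusted p of 0.052 without the cell of each sum with the most UMIs. Gzmb, encoding granzyme B, was at 122 and 24.97 CPM and at 50.9 and 3.1 CPM, with 99 of 155 UMIs in 1 cell of mouse 1 and 12 of 13 in 1 cell of mouse 2. Ccl5 was lower in shared clones, with 3 UMIs against 64 in lung-only clones, a ratio of 14.5 with a counting interval of 4.73 to 72.0. That interval takes UMIs as independent and is too narrow, since several came from the same cell. Cells with a UMI of Ccl5 had a mean of 6.71 and 3.4 UMIs in lung-only clones of mouse 1 and mouse 2. In shared clones the mean was 1 in both mice. Mki67 (0.76 ± 0.19), Top2a (0.75 ± 0.17) and Ube2c (0.95 ± 0.22) were the 3 mitosis genes of 21 tested that were higher, against 0.331% of all genes. The median over that list was 0.95. Without the 2 barcodes 0 of the list passed, with a median of 0.66. Without the top cells the adjusted p was 0.22 for Mki67, 0.15 for Top2a and 0.059 for Ube2c. The share of cells with a UMI of Mki67 or Top2a was 29.6% in shared and 29.7% in lung-only cells of mouse 1, and 18.8% and 23.2% in mouse 2. St3gal6, a sialyltransferase (1.23 ± 0.21), and Pclaf, a clamp-associated factor of replication (0.96 ± 0.16), passed both ways. Ccr7 was at 13.4 and 15.1 CPM and at 19.6 and 12.4 CPM (0.03 ± 0.49), an error wide enough that these sums do not resolve a difference. Tcf7 was at 111 and 69.2 CPM and at 125 and 87.1 CPM (0.64 ± 0.20) and did not pass (edgeR, adjusted p = 0.19).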

How the data were processed

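CD4+IL-4eGFP+ cells of lung and MLN of 2 mice were profiled with 10x 5′ expression and TCR libraries. The deposited expression values are counts of UMIs per gene and barcode, without normalization, and the deposited TCR contigs carry counts of UMIs per contig. The authors made both with Cell Ranger on mm10 (GRCm38), combining 2 sequencing runs per expression library. The submitters' processing notes name versions 2.1.1 and 3.0.1. Cells were filtered as stated in the results, and the study's further limit on genes per UMI would have removed 0 of them. The rows of 268 TCR genes were left out of sums and tests, since clones set them. Kept cells numbered 1082, 416, 2462 and 754 for lung 1, lung 2, MLN 1 and MLN 2, with totals of 8507249, 2798232, 14512767 and 4477888 UMIs over them.

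UMI counts were summed per gene over the cells of each class and library, since cells are not replicates. Sums were tested with edgeR 4.0.16 under R 4.3.3 (filterByExpr, TMM, glmQLFit and glmQLFTest) with Benjamini-Hochberg adjustment over all tested genes, a threshold of 0.05 and mouse, or library in the comparison with MLN, as a block. SE is the size of the log2 difference divided by the root of F. Both sums of a mouse come from 1 library, which is why they are paired. The correlation over genes of their deviations from the group means was 0.269 for expanded and single lung cells and 0.0965 for shared and lung-only clones. For the same expanded and single lung sums, filtered and scaled together with the MLN sums, it was 0.203. That of the MLN sums was not computed. DESeq2 1.42.0 and other definitions of clones, cells and depth were alternatives, of which leaving out the 2 barcodes, or the cell of each sum with the most UMIs of a gene, was chosen after seeing the data. The prior degrees of freedom of the spread of expanded and single cells were infinite with all cells and 17.0 without the 2 barcodes. The test was also run on simulated counts, drawn with the same level of a gene in both mice and 1 dispersion for all genes. These counts hold no difference between mice and no spread that varies by gene. They cannot show how the test handles either. Per-mouse ratios add 1 CPM to both sums. Named genes were a panel of 32 genes, up to 12 genes per direction with the largest difference among those that passed, with a mean of at least 20 CPM and the same sign in both mice, and members of 15 gene lists that passed. Some measured genes are not reported here. Members and lists were chosen with earlier results of these data known. V and J coordinates come from GENCODE vM21 (GRCm38). Shares have exact Clopper-Pearson 95% intervals from scipy 1.17.1, which take cells as independent. The block takes out the difference in level between the mice or libraries. The p-values then set a difference against a spread drawn mainly from all genes together, and they do not measure how each gene varies between mice.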

Additional observations from a re-analysis of the deposited data

Results flagged for a closer look

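With 2 mice, no group was large enough for a test of a library standing apart from the rest. What stood out were genes whose difference between expanded and single cells was not the same in lung and MLN, tested as 1 term in edgeR (the lung difference minus the MLN difference, log2). It was positive for Ccl5 (5.39), Ctsw (3.40), Hist1h2ag (2.47), Osm (1.81), the creatine kinase gene Ckb (1.53), Hspa1a (1.26), Hist1h2ap (0.98) and the IL-7 receptor gene Il7r (0.82). It was negative for Rgs16 (−1.84), Ccr7 (−1.78), S100a4 (−1.70), Nsg2 (−1.51), Sh2d1a (−1.15), Rflnb (−1.05), Socs3 (−1.01), Slamf6 (−0.96), Tcf7 (−0.86), Tbc1d4 (−0.73) and Gimap6 (−0.69). A positive value need not mean a higher level in expanded lung cells, and Ccl5 was not called between expanded and single lung cells. Gimap6 and the histone genes belong to families of similar copies. Osm had a difference of −0.05 without the 2 barcodes with basophil markers. Il7r was at 438 CPM in expanded and 409 in single lung cells of mouse 1 and at 293 and 386 CPM in mouse 2, against 33.7 and 67.0 CPM and 70.9 and 105.7 CPM in MLN. Rgs16 was at 36.7 and 51.4 CPM and at 32.9 and 57.8 CPM in lung, against 13.9 and 6.1 CPM and 26.1 and 9.2 CPM in MLN.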

How the results depend on the processing

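The numbers of genes called depended strongly on the fit and the cells, and the direction of most named genes did not. Apart from the panel, named genes were chosen for passing, in part with the same sign in both mice. The alternatives reuse the same cells, so a stable direction was largely set by that choice and is no separate support. For expanded against single lung cells, 126 genes passed, 7 without mouse as a replicate block, 11 with DESeq2 and 10 with DESeq2 without the block. Other clones gave 19 (chains with the most UMIs), 62 (TCRβ only), 59 (strict contigs), 1 (clones of 3 or more) and 24 (1 cell per clone). Other cells gave 90 (no extra chains), 23 (no cells with Mki67 or Top2a), 42 (thinned cells) and 33 (equal cell numbers). Further fits gave 42 (without the 2 barcodes), 79 (without the top cell of each gene) and 2 (without the 2 barcodes and without the block). Leaving out 1 sum gave 9 to 97 (71 without the expanded cells of mouse 2), the fewest without the expanded cells of mouse 1, and as the arm left with 1 sum is assumed to vary like the other, these fits have no block. For lung minus MLN, 40 passed, 0 without the block (also without the 2 barcodes, with 233 and 215 at an unadjusted p under 0.05), 11 and 6 with DESeq2 with and without it, 82 without a filter on low counts, 22 with TCRβ only, 12 for clones of 3 or more, 10 for 1 cell per clone, 10 in thinned cells and 0 to 4 without 1 sum. For shared against lung-only clones, 65 passed, 0 without the block with and without the 2 barcodes (259 and 263 unadjusted), 1 and 0 with DESeq2, 100 without the filter, 22 (amino acid CDR3), 129 (most UMIs), 7 (TCRβ only), 0 (strict contigs, 306 unadjusted), 2 (clones of 3 or more), 20 (1 cell per clone), 34 (no extra chains), 2 (no Mki67 or Top2a), 0 (thinned), 28 (without the 2 barcodes), 33 (without top cells) and 4 to 56 without 1 sum (37 without the shared cells of mouse 2). The causes were not tested. The expanded share of lung cells was 49.2% and 34.6% with TCRβ only, 30.2% and 17.1% within the organ, 17.0% in mouse 2 with strict contigs and 20.5% in mouse 1 at the cell numbers of mouse 2.

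Signs turned in 19, 10 and 11 of 1786, 1645 and 1345 values of named genes in the 3 comparisons where 1 of the fits passed or only 1 mouse was taken, and in 59, 68 and 24 where neither passed. In expanded against single cells these were Areg without the expanded cells of mouse 1 (−0.79) and the single cells of mouse 2 (−0.37), Il6 (−0.0914) and Nkg7 (−1.34) without the expanded cells of mouse 1, Nkg7 in mouse 2 alone (−1.05), and Il13 with TCRβ only (0.39) and without the single cells of mouse 1 (0.81). With the chains of most UMIs they were Ccl3 (−0.0878), Ccl4 (−1.59), Ier3 (−0.29) and Osm (−0.0690), and with clones of 3 or more Egr1 (−0.12), Hspa1b (−0.0794), Ier3 (−0.38), Ifng (−0.71) and Osm (−0.14). Ier3 also turned without cells with Mki67 or Top2a (−0.68) and without the 2 barcodes (−0.0879), and Osm without these and the block (−0.00304). In lung minus MLN, Gzmb turned in mouse 2 alone (0.46) and without the single lung (0.093) or expanded MLN cells (2.11) of mouse 1, Hist1h2ap with TCRβ only (−0.016) and clones of 3 or more (−0.32), Hspa1a without the single MLN cells of mouse 1 (−0.74), and Osm with most UMIs (−0.0823), clones of 3 or more (−0.40) and without the 2 barcodes with (−0.0521) and without the block (−0.22). In shared against lung-only clones, leaving out the lung-only cells of mouse 1 turned Areg (0.47), Calca (0.86), Il13 (0.17), Il1rl1 (0.15), Lag3 (0.48) and Pdcd1 (1.504). Areg also turned without the shared cells of mouse 2 (0.052) and Pdcd1 in mouse 2 alone (0.10). Egr1 (1.00) and Gpr183 (−0.0709) turned for clones of 3 or more, and Hist1h2ap without cells with Mki67 or Top2a (−0.30). All fits without 1 sum lack the block and leave 1 class with 1 mouse. Differences in level between the mice thus enter their values. Areg, Il13, Il1rl1 and Pdcd1 were at higher levels in mouse 1 than in mouse 2 in both shared and lung-only clones.

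Depth limits genes of few UMIs, such as Ccr7 in expanded cells, and the 88 expanded lung cells of mouse 2 limit what both mice can show together.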
